A study of Mus musculus with 96 samples.

Results

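Claudins are the membrane proteins whose extracellular loops line the space between epithelial cells at the tight junction. The members described here are Cldn1, Cldn2, Cldn3, Cldn4, Cldn7, Cldn8, Cldn10, Cldn14, Cldn16 and Cldn19, chosen by gene symbol for their known part in paracellular transport in the kidney, and all 10 were found among 54532 genes, 35 of them claudin genes. Their transcript abundance was followed in glomeruli and 14 microdissected tubule segments of male C57BL/6 mice aged 6 to 8 weeks, for which the labels name no genotype other than the strain and no treatment. The segments run from the first convoluted proximal tubule (PTS1) through the cortical (PTS2) and outer medullary (PTS3) straight proximal tubule to the descending thin limb of short loops (DTL1) and of long loops in the outer (DTL2) and inner (DTL3) medulla. The ascending limb is covered by its thin part (ATL) and by its thick part in medulla (MTAL) and cortex (CTAL), and the distal nephron by the distal convoluted (DCT) and connecting (CNT) tubules and by the cortical (CCD), outer medullary (OMCD) and inner medullary (IMCD) collecting duct. The 93 samples fall into 53 combinations of mouse number and segment, with 5 in each of PTS2, CTAL and CCD, 4 in ATL as in OMCD, and 3 in the remaining groups. 1 PTS2 column matched no sample title, so it was given no mouse number and was counted as a combination of its own. Pieces of 1 combination were averaged, and each combination, called a mouse of its segment in what follows, was the replicate. The labels do not state whether mice numbered alike in different segments were the same animals.

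In a leaky epithelium such as the proximal tubule, claudin pores let sodium, chloride, calcium and water pass between cells, whereas in a tight epithelium such as the collecting duct claudins seal that route. Cldn2 forms a pore for small cations and water. Cldn10 is made from alternative first exons as Cldn10a, an anion pore of the proximal tubule, and Cldn10b, a sodium pore of the ascending limb. Cldn16 and Cldn19 together form the route by which the thick ascending limb reabsorbs calcium and magnesium, Cldn14 blocks that route, and loss of CLDN16 or CLDN19 causes familial hypomagnesaemia with hypercalciuria. Cldn3, Cldn4, Cldn7 and Cldn8 are known from the distal nephron, where Cldn4 and Cldn8 are held to form a chloride path. Cldn1 is a sealing claudin of the parietal epithelium of Bowman's capsule.

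The promoter windows of Cldn10, Cldn2, Cldn16 and Cldn19 are shown because these genes carry the proximal and ascending limb patterns described next, and because Cldn10 has 2 RefSeq starts 67079 bases apart that the gene-level values cannot separate. Cldn19 also has 2 starts, 28 bases apart, and the window of the first is shown. Each window holds the 250 bases before a RefSeq start (GRCm38.p6 coordinates), 5′ to 3′ on the gene's strand, and capitals mark a motif match. The upstream Cldn10 start follows chr14:118787621-118787870 (+), the downstream one chr14:118854700-118854949 (+), Cldn2 chrX:139800558-139800807 (+), Cldn16 chr16:26462885-26463134 (+) and Cldn19 chr4:119255191-119255440 (+).
Cldn10 upstream start: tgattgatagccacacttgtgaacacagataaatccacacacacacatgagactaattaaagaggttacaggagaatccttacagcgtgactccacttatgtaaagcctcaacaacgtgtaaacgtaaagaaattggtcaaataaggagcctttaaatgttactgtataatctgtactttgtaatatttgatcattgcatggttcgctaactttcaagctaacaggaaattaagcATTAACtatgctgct
Cldn10 downstream start: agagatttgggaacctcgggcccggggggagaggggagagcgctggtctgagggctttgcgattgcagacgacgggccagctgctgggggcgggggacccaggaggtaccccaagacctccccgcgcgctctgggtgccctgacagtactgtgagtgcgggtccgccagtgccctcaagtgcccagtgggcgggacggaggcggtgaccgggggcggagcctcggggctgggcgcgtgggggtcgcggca
Cldn2: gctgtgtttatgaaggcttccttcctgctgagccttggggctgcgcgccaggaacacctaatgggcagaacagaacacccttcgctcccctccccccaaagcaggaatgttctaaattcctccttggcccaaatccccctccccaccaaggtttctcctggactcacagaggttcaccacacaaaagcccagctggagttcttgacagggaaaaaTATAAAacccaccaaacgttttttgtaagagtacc
Cldn16: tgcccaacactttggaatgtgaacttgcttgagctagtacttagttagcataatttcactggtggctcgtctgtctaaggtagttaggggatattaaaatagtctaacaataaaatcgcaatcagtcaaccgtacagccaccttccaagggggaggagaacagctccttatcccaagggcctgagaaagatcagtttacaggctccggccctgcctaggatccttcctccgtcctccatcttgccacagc
Cldn19: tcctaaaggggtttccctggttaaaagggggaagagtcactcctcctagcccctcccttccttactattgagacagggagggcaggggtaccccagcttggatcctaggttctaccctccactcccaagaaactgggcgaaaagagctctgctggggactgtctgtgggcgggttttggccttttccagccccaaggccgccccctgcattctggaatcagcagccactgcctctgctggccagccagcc
The Cldn10 windows differed in composition, with 36.0% G and C and 4 CpG upstream of the first start against 72.4% and 22 CpG upstream of the second. The capitals in the first are a GTTAAT match on the opposite strand (the half-site of HNF1, a factor of proximal tubule cells), whose first base lies 15 bases before the start. Those in Cldn2 are a TATAAA match (the TATA box) 35 bases before the start. Motifs were searched on both strands. GTTAAT was present in 3 of the 14 windows of the 9 claudins with a window (Cldn10, Cldn1 and Cldn14; all members but Cldn8) and in 6.43% of the 32851 windows of all genes, and TATAAA in 1 of 14 and 12.4%. No claudin window held CAAAGTCCA (HNF4; 0.384% of all windows), AAGGTCA (ESRR; 4.08%) or AACCNGTT (GRHL; 1.79%), which says only that these letters are not in these windows. By position, Cldn1 and Cldn16 are neighbours on chromosome 16 with 0 protein-coding genes between them, as are Cldn3 and Cldn4 on chromosome 5.

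Values are TPM, a transcript abundance scaled to gene length, so that levels of different genes can be set side by side, and read depth is unknown. Defining markers were checked against the labelled tubule groups. Slc5a2 was at 2792 in PTS1, Psca at 13757 in ATL, Slc12a1 at 4116 in MTAL and 6135 in CTAL, Slc12a3 at 5782 in DCT and Aqp2 at 6186 to 27393 from CNT to IMCD. Aqp1 was at 6582 TPM in DTL2 and 11647 in DTL3 but 97.4 in DTL1, where Slc14a2 was at 7555. The 3-gene connecting tubule list (Calb1, Trpv5 and Slc8a1) went against the CNT label, with summed TPM of 5381 to 9224 in DCT and 1235 to 1959 in CNT, while Slc12a3 was at 0.84 or less in each CNT mouse. Kap, a proximal transcript, was at 1029.6 to 4198 TPM in the DTL1 mice and 113 to 441 in the DTL2 mice, and Umod, a thick limb transcript, at 73.0 to 393 in DTL1 and 188 to 329.6 in DTL3. Among 1461 odorant and vomeronasal receptor genes, which are not broadly expressed in the kidney, the 95th percentile of the group mean was 3.13 TPM in glomeruli, 6.03 in DTL1, 1.97 in DTL2, 2.59 in DTL3, 3.07 in ATL and 1.14 in OMCD, and at most 0.423 elsewhere. ATL mice varied in this, with 15 to 588 such genes at 1 TPM or more. Bulk values cannot tell apart fewer cells of a type from less RNA per cell.

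All 10 claudins passed the filter of at least 1 TPM in at least 3 mice, and all 10 differed among the 15 groups by the moderated F-test (limma on log2(TPM + 1), Benjamini-Hochberg adjusted p from 5.52e-40 for Cldn7 to 6.26e-05 for Cldn14). That test called 93.9% of the 33793 genes tested, so 10 of 10 is near the background. The claudins differed in how widely they were expressed. By group mean, Cldn7 was at 1.35 to 2.99 TPM in glomeruli and the proximal tubule and above 100 TPM in the other 11 groups, and Cldn8 was above 100 TPM in 10 groups. Cldn16 reached 10 TPM in 3 groups, Cldn2 and Cldn1 in 5, Cldn10 in 7, Cldn4 and Cldn19 in 8 and Cldn3 in 11. Cldn14 reached 10 TPM in no group mean, its highest being 5.05 ± 4.68 TPM (SD, n = 4) in ATL.

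**Figure D1:**
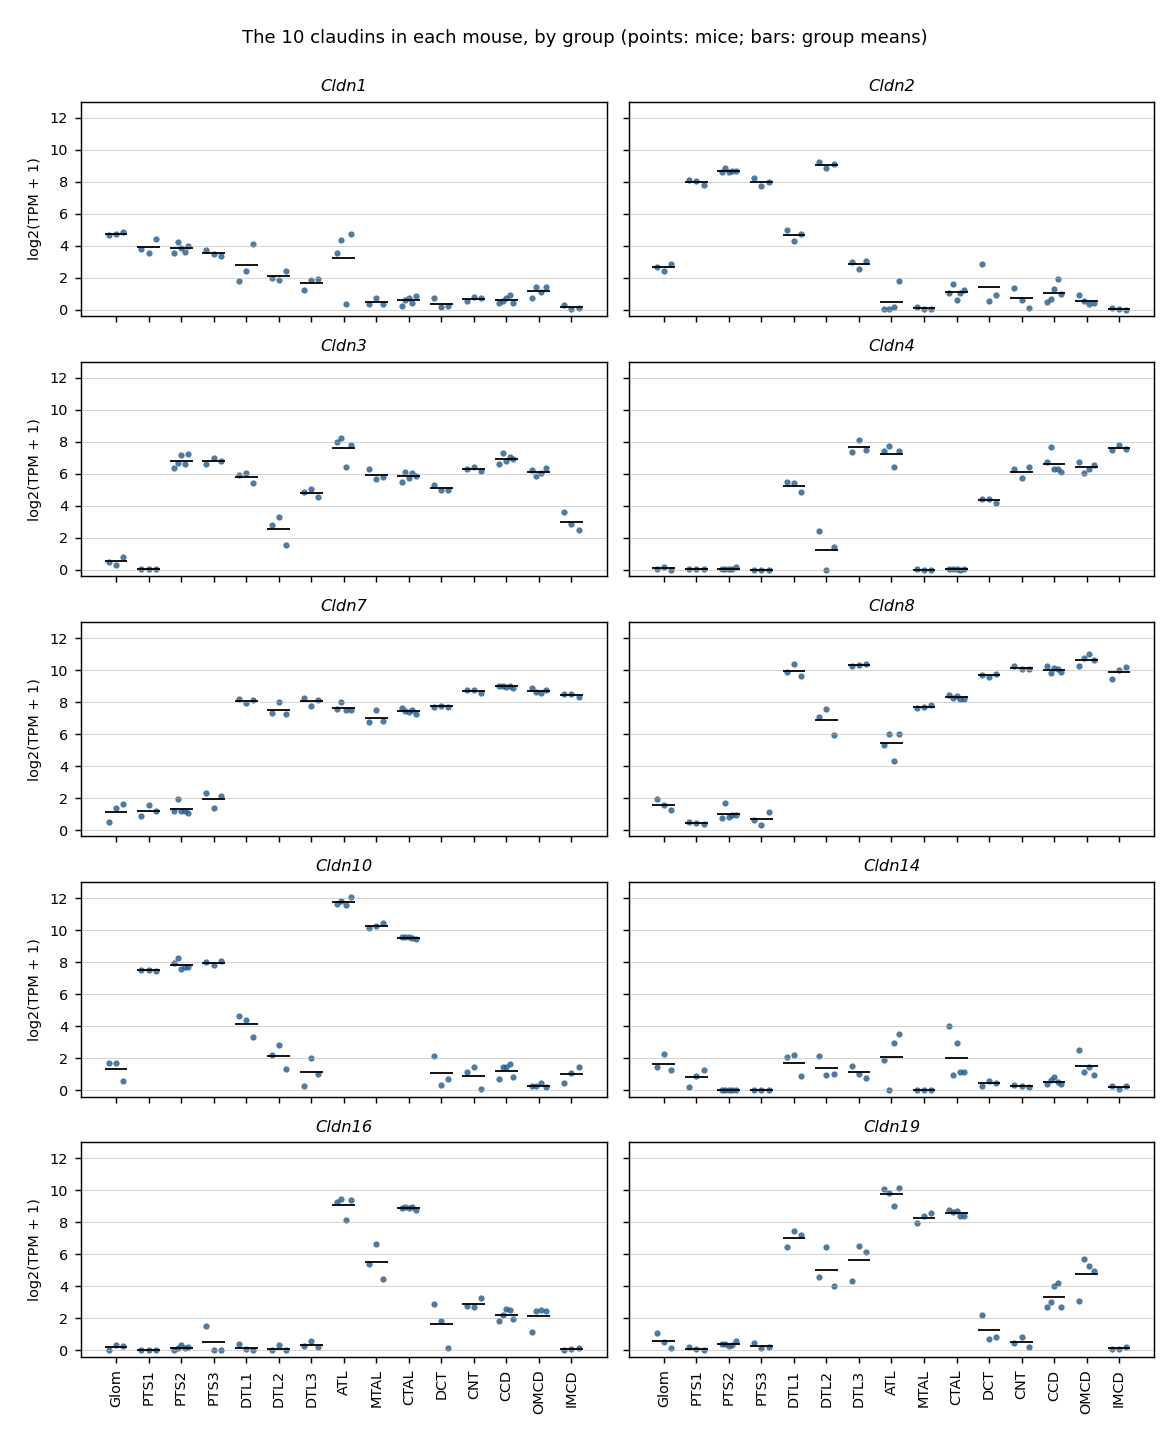
Each claudin in each mouse, as log2(TPM + 1) on the vertical axis, for the 15 groups in nephron order (points, mice; bars, group means). Cldn7 and Cldn8 are low from the glomerulus to PTS3 and higher in every group from DTL1 on, with Cldn8 at 19.2 to 63.9 TPM in ATL, Cldn2 is high in the 3 proximal segments and DTL2, and Cldn16 is high in ATL, MTAL and CTAL.

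The summed TPM of the 10 claudins was 39.9 ± 1.49 in glomeruli (n = 3), 452 ± 26.8 in PTS1 (n = 3) and 5647 ± 1080.4 in ATL (n = 4), the highest of the group means, given as a description without a test. The leading claudin changed along the nephron. Cldn1 made up 65.0% ± 3.19 of the sum in glomeruli. Cldn2 led in PTS1 (56.1% ± 2.97) and PTS2 (53.0% ± 1.6), with Cldn10 next at 40.0% ± 1.52 and 29.8% ± 4.18. In PTS3 the shares of Cldn2 (39.9% ± 4.37) and Cldn10 (39.8% ± 1.64) differed by less than their spread. Cldn8 led in DTL1 (64.2% ± 5.46) and DTL3 (68.9% ± 1.6), whereas DTL2 was led by Cldn2 (59.9% ± 12.9). Cldn10 led the whole ascending limb, at 62.9% ± 6.24 in ATL, 61.8% ± 2.43 in MTAL and 34.3% ± 0.668 in CTAL, and Cldn8 led from DCT (74.8% ± 1.63) to IMCD (62.5% ± 6.92). With all 35 claudin genes in the denominator, Cldn1 was 3.35% of the glomerular sum, and Cldn5 of endothelial cells was at 575 ± 29.5 TPM there.

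**Figure D2:**
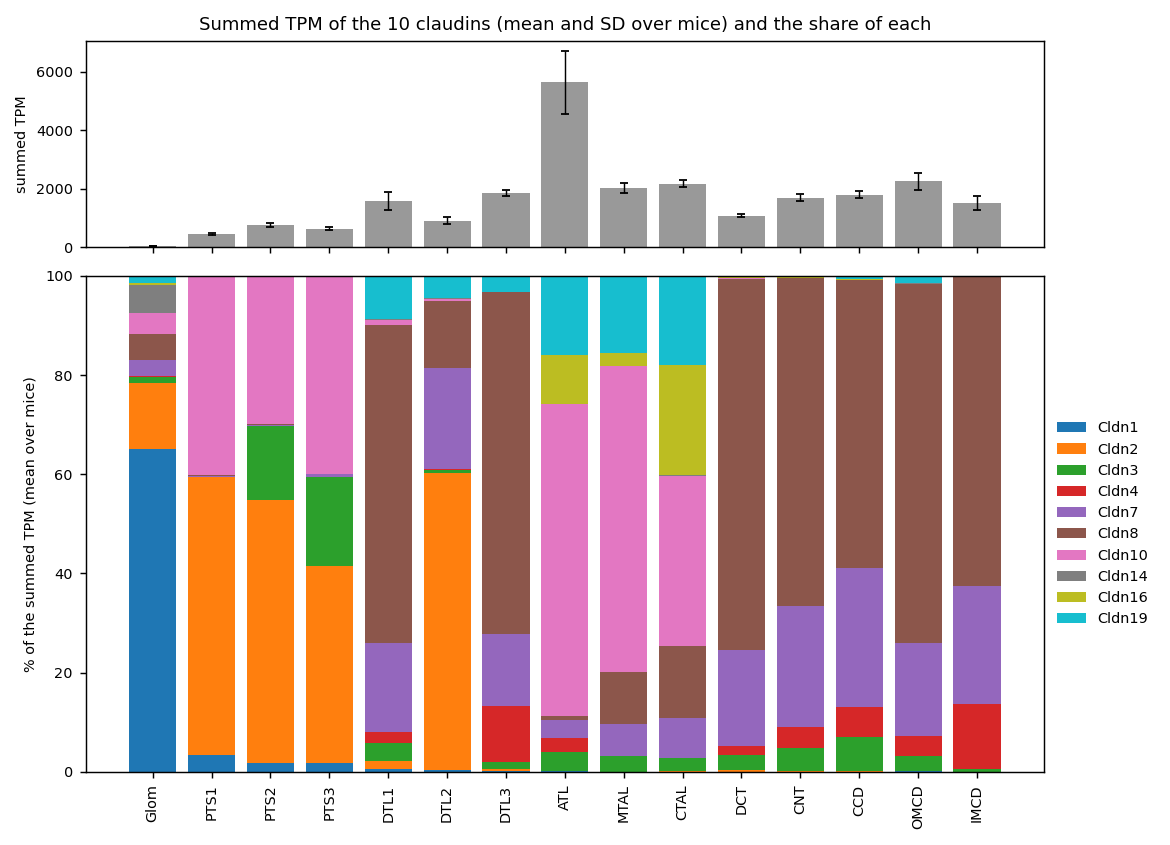
Upper panel, summed TPM of the 10 claudins by group (bars, mean over mice; error bars, SD); lower panel, mean share of each claudin in percent of that sum. The sum is highest in ATL, and the leading share passes from Cldn1 in glomeruli to Cldn2 in PTS1 and PTS2, Cldn10 in the ascending limb and Cldn8 from DCT to IMCD.

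Among the pore-forming claudins, Cldn2 was most abundant in the proximal tubule and DTL2, with a lower level in DTL1. Its values were 270.5, 269 and 222 TPM in the PTS1 mice, 387 to 458 in the 5 PTS2 mice (median 403) and 304, 209.7 and 249 in the PTS3 mice. In DTL2 the 3 mice were at 606, 459.8 and 552 TPM, all above every proximal mouse. DTL1 and DTL3, the other descending limb segments, were at 30.7, 18.7 and 25.4 and at 6.94, 4.77 and 7.43 TPM, with no overlap with DTL2. Relative to DTL2, the log2 difference was -4.42 for DTL1 (DTL1 minus DTL2, SE 0.37, adjusted p 4.24e-13) and 6.20 for DTL3 (DTL2 minus DTL3, SE 0.37, adjusted p 8.60e-18). The step from PTS3 to DTL2 (PTS3 minus DTL2, -1.11, SE 0.37, adjusted p 0.00956) was lost without PTS3 replicate 2 (-0.97) and with a pseudocount of 0.1 (adjusted p 0.159), and after rescaling each mouse by the median ratio over expressed genes it was 0.12 (adjusted p 0.793). In the order of levels, where neighbours count as distinguished at an adjusted p under 0.05 with no minimum difference, DTL2 was not distinguished from PTS2 (log2 difference 0.39, adjusted p 0.306), nor PTS2 from PTS1 or PTS1 from PTS3, whereas PTS3 was above DTL1 (3.32, adjusted p 1.15e-10). Cldn2 in the DTL1 mice followed the order of Kap (4198, 1029.6 and 2266 TPM). Other claudins of the proximal tubule did not, with Cldn10 at 24.4, 19.5 and 9.13 TPM in the same mice. Cldn3 was at 61.3, 64.6 and 41.3 TPM there and Cldn1 at 2.55, 4.36 and 16.2. The part of proximal transcripts in the Cldn2 values was not tested. Glomeruli were at 4.40 to 6.35 TPM, against a receptor-gene percentile of 3.13.

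Cldn10 was expressed in both places its isoforms are known from. The proximal values were 184, 181 and 176 TPM in PTS1, 189 to 304 in PTS2 (median 209) and 259.6, 230.3 and 266 in PTS3. PTS1 lay just below the other 2, which overlapped, and no neighbouring contrast was called. In DTL1 it was at 24.4, 19.5 and 9.13 TPM, in DTL2 and DTL3 at most 5.97, and from DCT to IMCD at most 3.41. Between these low stretches ATL was at 3241, 3567, 3008 and 4253 TPM, MTAL at 1150.5, 1241 and 1377, and CTAL at 698 to 771 (median 757), so the 3 ascending limb segments did not overlap. The rise from DTL3 to ATL was the largest of the 150 claudin differences in size (DTL3 minus ATL, -10.66, SE 0.33, adjusted p 2.80e-28), and the fall from CTAL to DCT was 8.54 (SE 0.32, adjusted p 2.06e-25). ATL exceeded MTAL by 1.48 (SE 0.33, adjusted p 3.47e-04), while MTAL minus CTAL, at 0.75, was not called (adjusted p 0.202).

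Cldn10 was also the 1 claudin of 10 that was higher in a single group than in each of the other 14 by the intersection-union test, which takes the largest p of the 14 comparisons (margin over MTAL 1.48, adjusted p 0.00718). That test called 8.8% of all genes for any group and 0.394% for ATL, so 1 of 10 is near the background. The call was lost with a pseudocount of 0.1 (adjusted p 0.966), after median ratio rescaling (margin 1.05, adjusted p 0.0971), with ATL mice 2 and 3 alone (margin 1.44, adjusted p 0.0659) and without MTAL replicate 1 (margin 1.42, adjusted p 0.0563). Without ATL replicate 4, Cldn3 was called as well (margin 1.11, adjusted p 0.00435), and with ATL mice 2 and 3 alone Cldn3 was called in its place (margin 1.21, adjusted p 0.00829).

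The divalent-cation claudins Cldn16 and Cldn19 were both highest in ATL and CTAL, and both differed between the thick limb and DCT. Cldn16 was at 611, 699, 287 and 685 TPM in ATL and at 482, 508, 481, 494 and 444 in CTAL. In MTAL, between them, the 3 mice were at 41.2, 98.0 and 21.0 TPM, below every ATL and CTAL mouse. MTAL was lower than CTAL by a log2 difference of -3.47 (MTAL minus CTAL, SE 0.37, adjusted p 1.34e-09) and lower than ATL by 3.63 (ATL minus MTAL, SE 0.38, adjusted p 1.08e-10), whereas ATL and CTAL were not distinguished (0.16, adjusted p 0.732). The MTAL mice varied more than the CTAL mice, and the 2 pieces of the highest MTAL mouse were at 132 and 63.7 TPM. Both MTAL and CTAL held the thick limb marker Slc12a1, at 3525 to 4972 and 5295 to 7548 TPM.

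For Cldn19 the thick limb segments were closer. It was at 1078, 907, 522 and 1146 TPM in ATL, 247, 329 and 377 in MTAL and 337 to 443 in CTAL (median 403), and MTAL and CTAL overlapped (MTAL minus CTAL, -0.31, adjusted p 1). ATL exceeded MTAL by 1.48 (SE 0.50, adjusted p 0.0129), a call lost without MTAL replicate 1 (adjusted p 0.0603), with a replicate block (1.25, adjusted p 0.0818), with a pseudocount of 0.1 (adjusted p 0.0508) and after median ratio rescaling (1.05, adjusted p 0.0746). ATL mouse 4 was the lowest of the ATL mice for 8 of the 10 claudins, all but Cldn2 and Cldn14, among them Cldn1 (0.260 TPM against 10.7 to 25.7), Cldn3 (83.9 against 227 to 307), Cldn4 (86.8 against 169.6 to 215) and Cldn8 (19.2 against 38.9 to 63.9), while for Cldn7 and Cldn10 it was close to the next mouse (181 against 181 and 3008 against 3241). Cldn19 was also present in all descending thin limb segments, at 87.8, 176 and 146 TPM in DTL1, 23.5, 88.4 and 15.1 in DTL2 and 19.3, 91.1 and 70.6 in DTL3. Cldn16 was at 0.470 TPM or less in each of these 9 mice, and Slc12a1 at 7.99 or less. The thick limb list, which also holds Umod and Kcnj1, summed to 81.0 to 396 TPM in DTL1, 19.6 to 25.2 in DTL2 and 188 to 331 in DTL3, nearly all of it Umod, and its part in the Cldn19 values was not tested. DTL1 minus DTL2 was 2.04 for Cldn19 (SE 0.53, adjusted p 0.00180) and 2.77 without DTL2 replicate 2. DTL3 minus ATL was -4.10 (SE 0.50, adjusted p 7.59e-09), and -3.43 without DTL3 replicate 1.

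Past the thick limb both Cldn16 and Cldn19 fell. CTAL minus DCT was 7.45 for Cldn16 (SE 0.37, adjusted p 6.32e-21) and 7.38 for Cldn19 (SE 0.47, adjusted p 7.14e-17). DCT mouse 1 held the most of both (6.46 and 3.68 TPM, against at most 2.64 and 0.785 in the others). It also held the most Umod, Slc12a1 and Slc34a1 (2173, 72.3 and 158 TPM), and the part of such transcripts in its Cldn16 and Cldn19 values was not tested. Without that mouse the Cldn16 difference was 8.17. Cldn16 stayed at 5.68 to 8.70 TPM in CNT, 2.56 to 5.09 in CCD and 1.26 to 4.72 in OMCD. Its step from DCT to CNT (DCT minus CNT, -1.44, SE 0.41, adjusted p 0.0132) ranged from -2.16 without DCT replicate 1 to -0.79 without DCT replicate 3 (adjusted p 0.360), and was also not called without DCT replicate 2 or CNT replicate 3 (adjusted p 0.0597 and 0.0887), with a pseudocount of 5 or after either rescaling. Cldn19 was at 0.145 to 0.815 TPM in CNT, then at 5.48 to 17.5 TPM in the 5 CCD mice and at 7.42, 51.7, 37.8 and 29.7 in OMCD, and at most 0.143 in IMCD. CNT minus CCD was -2.84 (SE 0.47, adjusted p 1.23e-04) and OMCD minus IMCD 4.51 (SE 0.50, adjusted p 4.01e-10). CCD minus OMCD was -1.30 (SE 0.44, adjusted p 0.0225), with overlapping mice. It was not called without CCD replicate 1 or 5 or OMCD replicate 2, 3 or 4 (adjusted p 0.0549 to 0.131), with a pseudocount of 0.1 or after either rescaling, and was -1.97 without OMCD replicate 1. The 3-gene thick limb list summed to 755 to 1836 TPM in these OMCD mice, of which Kcnj1, also a potassium channel of the collecting duct, made up 754 to 1834, with Umod at 0.35 to 5.64 and Slc12a1 at 0.305 to 0.57. The part of these transcripts in the Cldn19 values was not tested.

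Cldn14, the claudin that blocks the Cldn16 and Cldn19 route, was at 0 TPM in every MTAL, PTS2 and PTS3 mouse. CTAL mice were at 14.9, 0.910, 6.64, 1.16 and 1.24 TPM, a wide spread in which all 5 mice exceeded MTAL. MTAL minus CTAL was -2.01 (SE 0.50, adjusted p 0.00603), and with a pseudocount of 5 it was -0.81 (adjusted p 0.0393), under the minimum of 1 for a call. The 2 CTAL pieces were at 6.31 and 6.97 TPM for mouse 3, at 0.60 and 1.71 for mouse 4 and at 1.52 and 0.95 for mouse 5, and both pieces of mouse 3 lay above those of mice 4 and 5. ATL mice were at 2.67, 0, 6.88 and 10.6 TPM, against a receptor-gene percentile of 3.07 there and 0.053 in CTAL. The Cldn14 means in glomeruli (2.28 TPM), DTL1 (2.59), DTL2 (1.79) and DTL3 (1.21) were below the percentile of their own group, and the part of that background in them was not tested. The calls for CTAL minus DCT (1.62, adjusted p 0.0316) and OMCD minus IMCD (1.33, adjusted p 0.0454) were lost on leaving out any of CTAL mice 1 and 3 and the 3 DCT mice for the first (adjusted p 0.0957 to 0.1797), and any of OMCD mice 1 and 3 and the 3 IMCD mice for the second (adjusted p 0.0676 to 0.191). ATL minus MTAL was 2.10 (adjusted p 0.00107), 2.80 without ATL replicate 3 and 0.94 with ATL mice 2 and 3 alone (adjusted p 0.242).

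**Figure D3:**
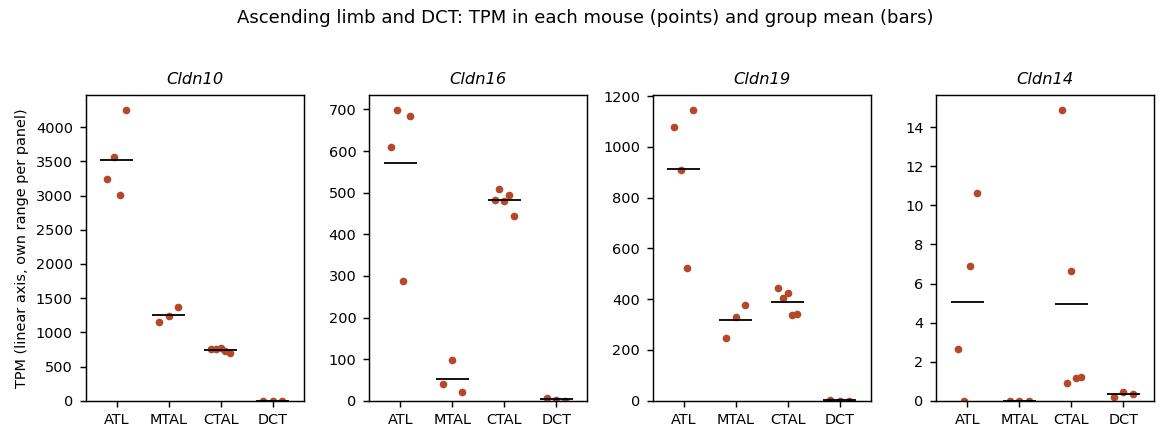
TPM of Cldn10, Cldn16, Cldn19 and Cldn14 (linear vertical axes, each panel with its own range) in each ATL, MTAL, CTAL and DCT mouse (points) with the group mean (bars). Cldn16 is at 21.0 to 98.0 TPM in MTAL against 444 to 508 in CTAL, while Cldn19 overlaps between MTAL and CTAL.

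Cldn3 showed the largest step of the 10 within the proximal tubule. It was at 0.030, 0.030 and 0.050 TPM in the PTS1 mice and at 82.6, 101, 143, 99.5 and 154 in the PTS2 mice, with no overlap. PTS1 minus PTS2 was -6.76 (SE 0.29, adjusted p 1.08e-23), and no other of the 10 claudins was called there, against 9.57% of all genes (Cldn8 and Cldn14 were called with a pseudocount of 0.1, and Cldn8 after quantile normalization). PTS3 stayed at 97.4, 128 and 112 TPM, and limma called 0 of the 10 claudins between PTS2 and PTS3 (1 of 10, Cldn2, at an unadjusted p under 0.05, with 4.7% of all genes called). With a pseudocount of 0.1 Cldn8 was called there (1.34, adjusted p 0.00184). Cldn3 was lower in the descending thin limbs, at 41.3 to 64.6 TPM in DTL1, 1.98 to 8.88 in DTL2 and 22.1 to 31.7 in DTL3. It was then higher in ATL, at 83.9 to 307 TPM. PTS3 minus DTL1 was 1.02 (SE 0.32, adjusted p 0.00391) and dropped below the minimum of 1 with a replicate block (0.92, adjusted p 0.0128) and without PTS3 replicate 2 or DTL1 replicate 5 (0.92 and 0.82), but was 2.39 after median ratio rescaling and 1.63 after quantile normalization. The rise from DTL3 to ATL was clearer (DTL3 minus ATL, -2.84, SE 0.30, adjusted p 2.15e-10). ATL was also above the next group, CCD (0.70, adjusted p 0.0240), in the order of levels.

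Cldn4, Cldn7 and Cldn8 were at most 3.98 TPM in every glomerular and proximal mouse, and all 3 rose at DTL1. Cldn8 went from 0.530, 0.270 and 1.15 TPM in PTS3 to 925, 1351 and 807 in DTL1 (PTS3 minus DTL1, -9.37, SE 0.29, adjusted p 1.45e-28). Cldn7 went from 3.98, 1.66 and 3.34 to 291, 245 and 281 TPM (-6.49, SE 0.22, adjusted p 1.51e-27), and Cldn4 from 0 in all 3 mice to 43.6, 41.8 and 28.6 TPM (-5.25, SE 0.29, adjusted p 9.84e-20). In this comparison 8 of the 10 claudins were called, 5 of them higher in DTL1 (61.8% of all genes) and 3 in PTS3 (3.75%), where 65.5% of all genes were called in either direction and the median log2 difference of all genes was -1.33. The balance over all genes depended on the scaling. The genes called numbered 22146 as deposited, 17781 after median ratio rescaling and 9115 after quantile normalization, of 33793 tested. Of these, 5.73%, 19.6% and 50.8% were higher in PTS3. The claudins called were 4 higher in PTS3 and 5 in DTL1 after the first rescaling and 4 each way after the second. Cldn1 was the added call in PTS3 (1.89 and 2.94), also called without DTL1 replicate 5 (1.35). Cldn14 was among the 5 at 2.59 TPM, under the receptor-gene percentile of 6.03, and its call (-1.71) was lost with a pseudocount of 5 (-0.58, adjusted p 0.0562) and after quantile normalization (-0.33, adjusted p 0.620). PTS3 minus DTL2 called 7 of the 10, against 40% of all genes and a median of -0.71, and of the genes called 9.62% were higher in PTS3 as deposited, 32.3% and 48.4% after the rescalings. Cldn1 was among the latter (1.48, adjusted p 0.0158), a call lost without PTS3 replicate 1 or DTL2 replicate 2 (adjusted p 0.0555 and 0.0592) and with a pseudocount of 5 (0.90), and the difference was 2.52 after median ratio rescaling and 2.95 after quantile normalization.

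Along the descending thin limbs Cldn4 and Cldn8 were lowest in DTL2. Cldn8 was at 134, 193 and 60.6 TPM in DTL2 and 1196, 1289 and 1352 in DTL3 (DTL2 minus DTL3, -3.54, SE 0.29, adjusted p 4.98e-13). Cldn4 was at 4.35, 0 and 1.66 TPM in DTL2 and 166, 281 and 183 in DTL3 (-6.82, SE 0.29, adjusted p 1.73e-22). Among urothelial markers (Upk1a, Upk1b, Upk3a and Krt5), the summed TPM was 11.2 to 14.1 in DTL1, 1.5 to 4.13 in DTL2 and 33.5 to 97.5 in DTL3. The DTL3 sum was nearly all Upk3a (33.4 to 97.1), with Krt5 at 0 and Upk1a and Upk1b at 0.42 or less, and the part of these transcripts in the Cldn4 and Cldn8 values was not tested. Cldn7 ranged from 153 to 308 TPM over the 9 descending limb mice, and none of its comparisons within the thin limbs was called, though DTL1 minus DTL2 (0.58, adjusted p 0.0268) missed only the minimum difference. DTL1 minus DTL2 called 6 of the 10 claudins (28.2% of all genes, median difference 0.54) and DTL2 minus DTL3 called 4 of 10 (9.58%, median -0.20). DTL1 of short loops and DTL3 of the inner medulla thus both had higher Cldn3, Cldn4 and Cldn8 and lower Cldn2 than DTL2, each past the test in both comparisons.

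At the turn into the ascending limb Cldn8 fell. Cldn8 was at 38.9, 63.9, 19.2 and 62.1 TPM in ATL (DTL3 minus ATL, 4.91, SE 0.27, adjusted p 4.44e-19), below every DTL3 mouse. Cldn4 was at 171, 215, 86.8 and 169.6 TPM and Cldn7 at 185, 253, 181 and 181, and neither was called against DTL3. Cldn1, by contrast, was at 10.7, 19.3, 0.260 and 25.7 TPM in ATL against 1.40 to 2.76 in DTL3. Its difference (DTL3 minus ATL, -1.56, SE 0.49, adjusted p 0.0130) was not called with a replicate block (-1.15, adjusted p 0.0624) or without DTL3 replicate 1 or ATL replicate 3 or 6 (adjusted p 0.0699 to 0.0798), or with a pseudocount of 0.1 (adjusted p 0.0885), and was -2.53 without ATL replicate 4. DTL3 minus ATL called 7 of the 10 claudins (14.6% of all genes, median difference 0.28), and ATL minus MTAL called 8 of 10 (28.1%, median 0.48).

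The thick limb and DCT then separated Cldn4 from Cldn7 and Cldn8. Cldn4 was at 0.050 TPM or less in all 8 MTAL and CTAL mice, and at 21.1, 21.0 and 17.1 TPM in DCT (CTAL minus DCT, -4.30, SE 0.26, adjusted p 1.08e-17). Cldn8 was at 201, 205 and 226 TPM in MTAL, 291 to 343 in CTAL (median 306) and 821, 767 and 849 in DCT (CTAL minus DCT, -1.37, SE 0.26, adjusted p 1.48e-04). Cldn7 was at 107, 177 and 113 TPM in MTAL, 155 to 199 in CTAL and 207 to 216 in DCT, with no comparison called. CTAL minus DCT called 6 of the 10 claudins (4.35% of all genes), whereas MTAL minus CTAL called 2, Cldn14 and Cldn16 (3.15%). After median ratio rescaling 3 claudins were called there, all higher in CTAL. Of all 33793 genes, 1104 were called under that rescaling, 24.0% of them higher in MTAL. Cldn2, at 0.062 TPM in MTAL and 1.20 in CTAL, was called there as well with a pseudocount of 0.1 (-3.05). The proximal tubule marker list summed to 0.63 to 11.8 TPM in MTAL and 68.1 to 410 in CTAL, and its part in the Cldn2 values was not tested.

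From DCT to IMCD Cldn8 had the highest mean of the 10 claudins and Cldn4 rose, first at CNT and again at IMCD. Cldn8 was at 1059.8 to 1241 TPM in CNT, 888 to 1218 in CCD, 1248 to 2013 in OMCD and 682 to 1148 in IMCD, and none of these neighbours was called. CCD minus OMCD (-0.64, adjusted p 0.0424) and OMCD minus IMCD (0.80, adjusted p 0.0213) passed the p threshold but not the minimum difference of 1. Cldn7 was at 385 to 434 TPM in CNT, 469 to 519 in CCD, 380.4 to 464 in OMCD and 323 to 366 in IMCD, and its DCT minus CNT difference (-0.97, adjusted p 0.00111) missed only the minimum of 1. Cldn4 was at 77.4, 51.9 and 84.6 TPM in CNT, above every DCT mouse (DCT minus CNT, -1.79, SE 0.29, adjusted p 9.40e-06). In CCD it was at 107, 205, 78.4, 76.9 and 69.9 TPM, in OMCD at 109, 66.0, 79.9 and 95.3, and in IMCD at 179, 221 and 192. OMCD minus IMCD was -1.18 for Cldn4 (SE 0.27, adjusted p 6.30e-04) and 3.31 for Cldn3 (SE 0.30, adjusted p 1.55e-12), which fell from 57.2 to 82.3 TPM in OMCD to 11.1, 6.18 and 4.54 in IMCD. Cldn3 and its chromosomal neighbour Cldn4 thus differed in opposite directions, past the test in each. DCT minus CNT called 3 of the 10 claudins (5.22% of all genes), CNT minus CCD 1 (1.12%), CCD minus OMCD 1 (12.1%, median difference of all genes -0.30) and OMCD minus IMCD 5 (18.6%, median 0.32). Cldn3 in DCT minus CNT (-1.22, adjusted p 0.00646) was not called after either rescaling (-0.87 and -0.92).

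**Figure D4:**
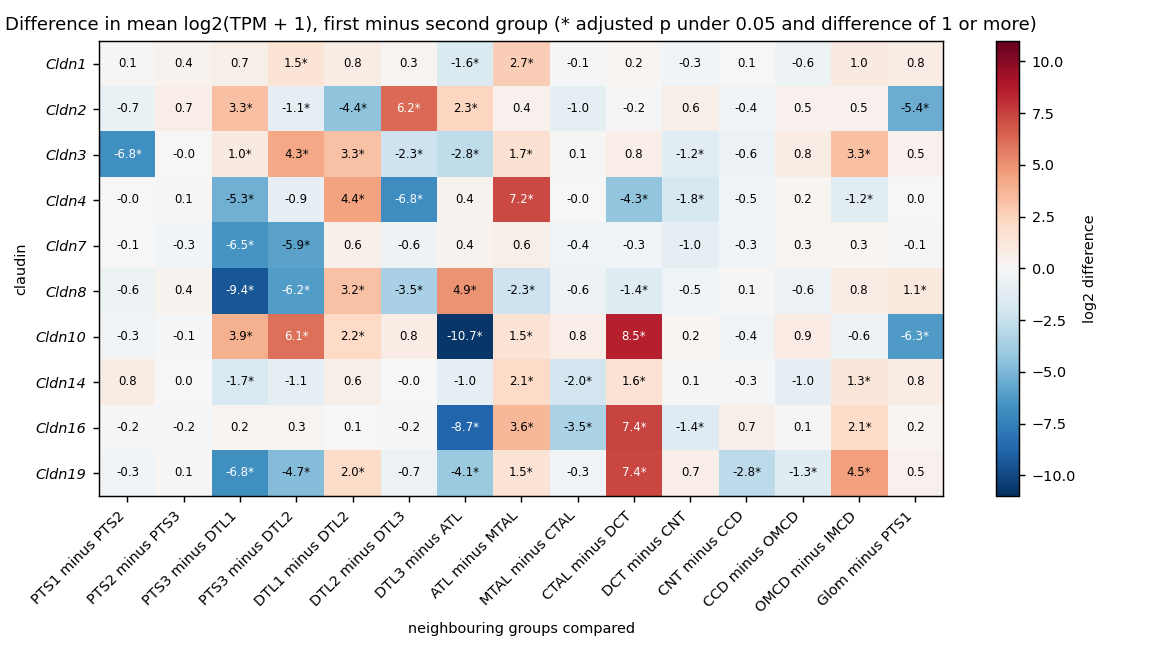
Difference in mean log2(TPM + 1) of each claudin between neighbouring groups, first minus second group (red, higher in the first; blue, higher in the second; the star marks an adjusted p under 0.05 with a difference of 1 or more). The largest values lie at PTS3 minus DTL1, DTL3 minus ATL and CTAL minus DCT, and CNT minus CCD and CCD minus OMCD hold 1 star each.

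Cldn1 was highest in glomeruli, at 24.2, 26.0 and 27.8 TPM, and no pair of neighbours in its order of levels was distinguished. PTS1 was at 12.96, 10.95 and 20.5 TPM, PTS2 at 10.5 to 17.5 (median 13.7) and PTS3 at 12.3, 10.2 and 9.23. Glomerulus minus PTS1 was 0.78 (adjusted p 0.174) and was not called. From MTAL to IMCD its mean lay between 0.121 and 1.29 TPM. Glomerulus minus PTS1 called 3 of the 10 claudins, namely Cldn2 (-5.42), Cldn10 (-6.26) and Cldn8 (1.10), against 51.9% of all genes and a median difference of 0.96. The Cldn8 call rested on 1.35 to 2.80 TPM in glomeruli, under the receptor-gene percentile of 3.13, and was lost without glomerulus replicate 1 (0.96), with a pseudocount of 5 and after either rescaling. Its value after quantile normalization was -0.07.

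Ratios of (TPM + 1) of claudin pairs within a mouse, which depend little on the total to which TPM are scaled unless a member is low, were compared in 8 exact permutation tests (two-sided, over mice, adjusted over the 8). None of the 8 passed after adjustment, and 5 had an unadjusted p under 0.05. In these 5 the mice of both groups did not overlap, with the smallest p that 3 against 5 mice allow (exact permutation p 0.0357, adjusted p 0.0571). The log2 ratio of Cldn2 to Cldn10 was 0.49 ± 0.13 in PTS1 (SD, n = 3), 0.84 ± 0.21 in PTS2 (n = 5) and between -0.13 and 0.23 in the 3 PTS3 mice. Cldn10 to Cldn16 was 4.80 ± 1.16 in MTAL and 0.62 ± 0.05 in CTAL, and Cldn16 to Cldn19 was -2.80 ± 1.20 and 0.31 ± 0.17, so Cldn16 was the lesser of the pair in every MTAL mouse and the greater in every CTAL mouse. Cldn3 to Cldn4 was 0.30 ± 0.54 in CCD and -4.65 ± 0.66 in IMCD. The remaining ratios were Cldn14 to Cldn16 in MTAL against CTAL (exact permutation p 0.214), where all MTAL values rest on a Cldn14 of 0, and Cldn4 to Cldn8 in CCD against IMCD (p 0.107) and against OMCD (p 0.0794), also by exact permutation.

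**Figure D5:**
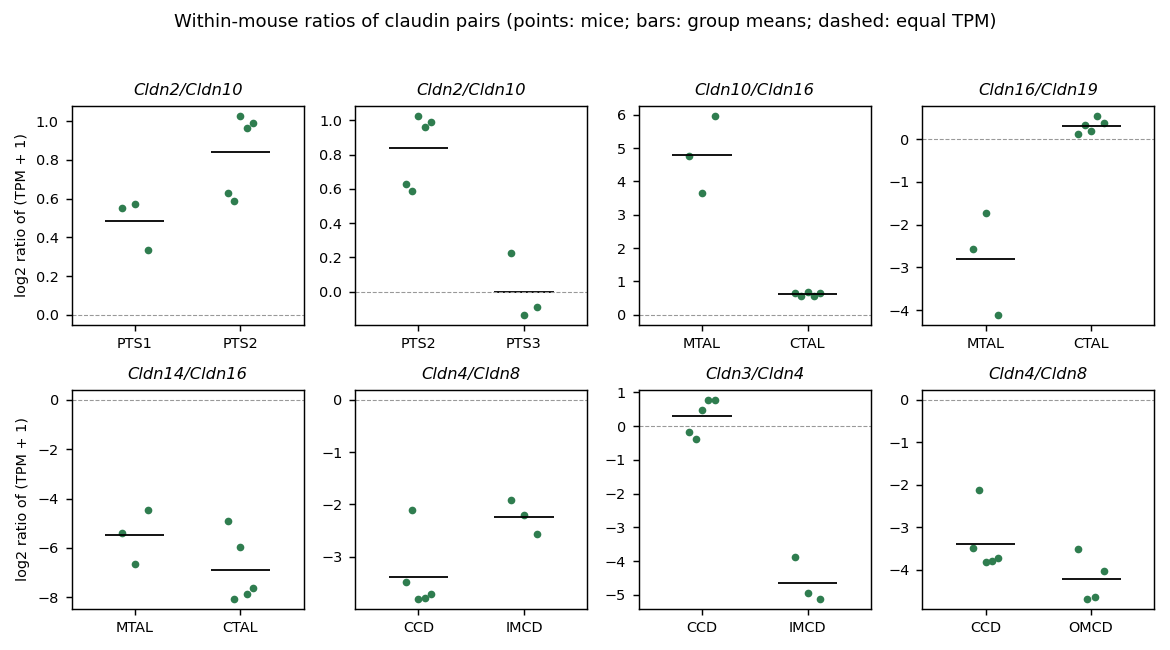
Log2 ratio of (TPM + 1) of the claudin pair named above each panel in each mouse (points) with the group mean (bars) for the 8 comparisons, where the dashed line marks equal TPM. Cldn16/Cldn19 is below 0 in the 3 MTAL mice and above 0 in the 5 CTAL mice.

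Genes with a pattern like each claudin were named by Pearson's r of the 15 group means of log2(TPM + 1), over 12098 protein-coding genes with a group mean of at least 10 TPM, as a description. The closest pair among the members was Cldn7 and Cldn8 (r 0.958), and Cldn16 and Cldn19 reached 0.716. Cldn1 against Cldn8 was the most opposed (r -0.842). The closest genes were Slc47a1 to Cldn2 (0.977), Ap1m2 to Cldn7 (0.972), Trpc1 to Cldn1 (0.959), Bicdl2 to Cldn8 after Cldn7 (0.958), Krt18 to Cldn4 (0.95), Robo3 to Cldn19 (0.941), Cdo1 to Cldn3 (0.894), Nccrp1 to Cldn16 (0.888), Slc22a4 to Cldn10 (0.872) and P2ry6 to Cldn14 (0.865). All these points share their libraries.

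Of the 25 other claudin genes, 13 had every group mean below 1 TPM and 4 reached 10 TPM. Cldn5, an endothelial claudin, was at 575 TPM in glomeruli and at most 6.64 in any other group mean. Cldn15 was at 118 ± 2.20 TPM in glomeruli and 71.3 ± 10.1 in DTL1, Cldn12 lay between 22.5 and 69.9 in all group means, and Cldn6 was at 15 ± 11.9 in DTL1. In DTL1, where endothelial Emcn was at 583.5 to 672.5 TPM, the Cldn5 mean was 6.64.

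The partners of the claudins at the junction were followed as a fixed list. All 20 genes of the tight junction list were tested, and 18 were higher in DTL1 and 17 in DTL2 than in PTS3 (61.8% and 36.2% of all genes), while the others were not called. The endothelial marker list summed to 22.8 to 51.6 TPM in PTS3, 805 to 896 in DTL1 and 324 to 499 in DTL2. The podocyte list summed to 0.865 to 2.225, 71.0 to 95.2 and 40.1 to 53.1 TPM. The part of such transcripts in these counts was not tested. After median ratio rescaling or quantile normalization, 11 of the 20 junction genes were higher in DTL1 and 11 in DTL2. Between PTS3 and DTL1, 17781 and 9115 of all 33793 genes were called under these rescalings, 19.6% and 50.8% of them higher in PTS3. Between PTS3 and DTL2, 9871 and 6716 genes were called, 32.3% and 48.4% of them higher in PTS3. Between MTAL and CTAL 4 of 20 were called, all higher in CTAL (2.57% of all genes), and 2 after quantile normalization. Of all genes, 1066 were called there as deposited and 911 after quantile normalization, 18.7% and 29.4% of them higher in MTAL. Tjp1, which encodes the scaffold ZO-1, was at 153 ± 30.0 TPM in glomeruli and lowest in PTS3, at 1.25 ± 0.398. Ocln (occludin) was highest in CTAL, at 150.04 ± 19.2 TPM, and lowest in glomeruli, at 2.10 ± 0.721. Tjp3 (ZO-3) rose from 17.0 ± 2.34 TPM in MTAL to 59.9 ± 14.0 in CTAL (MTAL minus CTAL, -1.74, SE 0.20, adjusted p 5.73e-09), the step at which Cldn16 and Cldn14 were also called.

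Among 12 genes tied to paracellular transport, 4 were called between MTAL and CTAL, all higher in CTAL, where 2.57% of all genes were. Casr, the calcium-sensing receptor whose signal controls Cldn14, was at 30.6 to 46.9 TPM in MTAL and 209 to 244 in CTAL (MTAL minus CTAL, -2.48, SE 0.17, adjusted p 6.52e-15). Pth1r, the parathyroid hormone receptor, was at 2.06 to 9.44 TPM in MTAL and 486 to 723 in CTAL (-6.85, SE 0.29, adjusted p 3.03e-22). Wnk1 and Scnn1a were the other 2 (-3.52 and -1.28). Klhl3, the ubiquitin ligase adaptor reported to target Cldn8, was at 26.5 ± 2.98 TPM in DCT and at most 2.46 in every other group mean, while Cldn8 was at 812 ± 41.9 TPM in DCT. Prss8, a channel-activating protease also linked to Cldn4, was highest in PTS2 (567 ± 100.4 TPM), where Cldn4 was at 0.160 TPM or less in each mouse.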

How the data were processed

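Glomeruli and microdissected tubule segments were sequenced in bulk (53 combinations of mouse number and segment), with libraries made by the SMARTer ultra low input and Nextera XT kits, per the labels' protocols. The authors deposited TPM per gene, and each column summed to 999999 to 1.00019e+06. STAR 2.5.4a, RSEM 1.3.0, Cell Ranger 3.0.2 and Seurat are named per the submitters' processing notes, with no step given for each; the genome build and annotation are not given in the sources used here. TPM carries no depth, so no counting interval was computed. The 3 single-cell samples were not analysed here. 1 PTS2 column matched its group but no sample title, and it was used as a PTS2 mouse of its own.

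Pieces of a mouse and segment were averaged as log2(TPM + 1), genes at 1 TPM or more in 3 mice or more (33793) were fitted with limma 3.58.1 (R 4.3.3, trended eBayes, 15 groups, no block), and p-values were adjusted by Benjamini-Hochberg over all genes. A neighbouring comparison was called at an adjusted p under 0.05 with a log2 difference of at least 1. Ratios were tested by exact permutation (scipy 1.17.1). Nothing in the labels states that mice numbered alike in different segments were the same animals. The members and lists were chosen with earlier results of these data known. The genes named were the members, other claudins reaching 10 TPM, fixed junction, transport and marker lists, and the closest genes by correlation. Alternatives covered the pseudocount, filter, scaling, averaging, replicate unit, variance model, replicate block and left-out mice; the list counts under the rescalings were added after seeing the data. Promoter windows are from RefSeq (GRCm38.p6), matched by symbol, and 9 of the 10 claudins matched (all but Cldn8). Values of some marker genes are not reported here.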

Additional observations from a re-analysis of the deposited data

Results flagged for a closer look

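Dixon's test was run on 39 sets of 4 or 5 mice and marked 5, where chance marks about 1 in 20. Cldn4 was at 205 TPM in CCD mouse 2 against 69.9 to 107 in the other 4 mice. Cldn7 was at 253 TPM in ATL mouse 3 against 181 to 185 in the other 3. In PTS2 mouse 3, Cldn7 was at 2.85 TPM against 1.10 to 1.25 in the other 4 mice and Cldn8 at 2.25 against 0.680 to 0.920. Cldn16 was at 1.26 TPM in OMCD mouse 1 against 4.56 to 4.72 in the other 3.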

How the results depend on the processing

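All 10 claudins passed the F-test under every alternative run, a test that called 93.9% of all genes as deposited. The neighbouring comparisons gave 62 claudin calls of 150 values as deposited, where 1.12% to 65.5% of all genes were called in a single comparison. The claudin calls ranged from 52 with a pseudocount of 5 to 70 with a pseudocount of 0.1. They numbered 60 to 64 on leaving out 1 mouse at a time. Shares of all genes under these alternatives are not given here, so the counts show only how the calls moved. Of 150 values, 141 kept their side of the threshold after median ratio rescaling, 139 after quantile normalization and all 150 without the variance trend, and 1024 of 1060 did so over the left-out mice. The claudins higher in a single group were 1 of 10 as reported, against 8.8% of all genes. They numbered 0 with a pseudocount of 0.1, 0 after median ratio rescaling, 2 after quantile normalization (Cldn10 and Cldn19) and 0 to 2 on leaving out 1 mouse. The count of ratios passing, 0 as reported, was 6 with a pseudocount of 5 in the ratio and 8 with pieces taken as independent samples, which treats pieces of 1 mouse as replicates. On leaving out 1 mouse, the ratios were judged by the unadjusted exact permutation p, not by the adjusted p used for this count. Without OMCD replicate 1, the log2 ratio of Cldn4 to Cldn8 in CCD minus OMCD had an unadjusted p under 0.05. Its difference was then 1.07, against 0.83 with all mice (exact permutation p 0.0794). The direction turned for Cldn2 in PTS3 minus DTL2 after median ratio rescaling (0.12, adjusted p 0.793) and for Cldn8 in glomerulus minus PTS1 after quantile normalization (-0.075, adjusted p 0.935), and the cause was not tested. The median of all genes in PTS3 minus DTL1 moved from -1.33 to -0.81 and -0.02 under these rescalings. The labels do not say whether like-numbered mice of different segments were the same animals, and same-numbered mice of different segments had a median correlation of deviations of 0.000185 over 290 pairs (19 over 0.1), against 0.000366 over 968 pairs of other numbers (31 over 0.1). With the number as a replicate block there were 59 calls, 10 claudins by the F-test and 1 higher in a single group. The calls lost under the block were Cldn3 in PTS3 minus DTL1 (0.92), Cldn1 in DTL3 minus ATL (-1.15) and Cldn19 in ATL minus MTAL (1.25). Depth is unknown, so values near 0 have no floor.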
